A study of Mus musculus with 126 samples.

Results

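The nuclear genes for subunits of oxidative phosphorylation were followed across 8 RNA-seq libraries of mouse embryonic stem cells. Members were taken by symbol from the deposited count table: every gene whose name begins with Ndufa, Ndufb, Ndufc, Ndufs or Ndufv and a digit, with Uqcr, with Cox4 to Cox8, or with Atp5. The rule used no measured value and found 80 of the 23420 genes listed, of which 35 belong to complex I, 8 to complex III, 19 to complex IV and 15 to complex V, and 3 encode associated proteins. Ndufa4 and Ndufa4l2 were counted with complex IV, where the Ndufa4 protein is now placed. Cells were of the J1 line, either wild type or a triple knockout (TKO) of the same background that lacks the DNA methyltransferases Dnmt1, Dnmt3a and Dnmt3b. Both genotypes were kept on gelatin in serum medium with leukaemia inhibitory factor and received, for 36 h, either Trichostatin A (TSA) at 5 ng/µl per the labels or 0.0033% DMSO. TSA blocks histone deacetylases, and DMSO was the control. Each genotype thus had a DMSO and a TSA group, of 2 libraries each. The labels do not say whether the libraries of a group came from separate cultures or how many clones the TKO cells represent, so the p-values measure only the spread between these libraries, which may be technical. The other 118 samples of the series were not analysed here. The series as a whole asks how DNA methylation and histone acetylation affect where transcription factors bind.

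Oxidative phosphorylation takes place in the inner mitochondrial membrane. Complex I passes electrons from NADH to ubiquinone, complex II passes them from succinate, complex III hands them on to cytochrome c, and complex IV reduces oxygen. The proton gradient that this builds drives complex V, the ATP synthase. Most subunits are encoded in the nucleus, a few core ones in the mitochondrial genome, and several subunits of complex IV exist in a widely expressed form and in forms restricted to muscle, lung or testis. Pluripotent stem cells in serum are known for relying strongly on glycolysis while keeping a working respiratory chain. The mitochondrially encoded subunits were not analysed here.

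Levels are given as normalised CPM, which scale each count by the size of its library and its TMM factor. Levels of different members are compared per kilobase of exon. Sums over marker lists are plain CPM, so they also depend on exon length and on the number of genes. The libraries held 13280631 to 15542527 counts, and 3 counts correspond to 0.183 to 0.243 CPM. The 3 targeted genes were lower in TKO than in wild type libraries under both treatments, with Dnmt3b at 596 and 588 CPM with DMSO against 378 and 343 with TSA in wild type cells, and 46.2 and 43.7 against 61.4 and 76.1 in TKO cells. The 7 embryonic stem cell markers summed to 2705 and 2967 CPM with DMSO against 1745 and 1518 with TSA in wild type cells, and 3425 and 3807 against 2018 and 1753 in TKO cells. Markers of other cell types were present at lower sums. The 10 germ cell markers gave 92.8 and 141 CPM with DMSO against 209 and 291 with TSA in wild type cells, and 332 and 345 against 548 and 529.7 in TKO cells. The 8 fibroblast and mesenchymal markers gave 38.5 and 45.1 CPM with DMSO against 80.4 and 96.2 with TSA in wild type cells, and 11 and 11 against 36.4 and 54.5 in TKO cells. Endoderm markers (6 genes) gave 12.7 and 13.8 CPM with DMSO against 16.4 and 19.2 with TSA in wild type cells, and 23.8 and 26.9 against 35.5 and 39.8 in TKO cells. In bulk libraries, fewer cells of a type and less RNA per cell cannot be told apart.

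Of the 80 genes, 76 had enough counts to be tested. The other 4 were Cox6a2, with 0 to 2 counts per library, Cox8b with 0 to 1, Cox8c with 0 to 6, and Ndufs5. Ndufs5, a small complex I subunit made in most cells, had 0 counts in 7 libraries and 1 in the other, and in the deposited annotation exons of the gene BC002163 cover 95.1% of its exon bases. Its value was not used as a measure of its expression. Other members with shared exon bases are uncertain to a smaller degree, because the strand setting of the counting is not given in the sources used here. They are Ndufa13 (27.5% of its exon bases, with Tssk6), Atp5j (16.2%, Gabpa), Atp5f1 (14.1%, Wdr77), Uqcrc2 (12.1%, Pdzd9), Cox6a2 (10.5%, Itgad), Ndufs1 (8.47%, Gm11602), Ndufb11 (7.27%, Rbm10), Ndufa2 (4.92%, Tmco6) and Ndufa4l2 (3.53%, Shmt2). Ndufb4, Atp5l and Atp5g2, which encode subunits found in every tissue, were also low, at 2.65, 3.88 and 3.71 CPM on average over the 8 libraries. RefSeq names 4 pseudogenes of Atp5k, 2 of Atp5l, 2 of Uqcrh and 1 each of Ndufa12, Ndufs5, Cox5b, Cox7c and Atp5c1, and how reads shared with such copies were counted is not given in the sources used here, so the levels of these 8 genes are uncertain.

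Per kilobase of exon, the ATP synthase subunit Atp5b and the complex IV subunit Cox4i1 had the highest levels. In wild type DMSO libraries Atp5b averaged 1253 CPM per kb, Cox4i1 847, Atp5a1 695 and the complex III subunit Uqcr10 316. The lowest of the tested members were the tissue-restricted Ndufa4l2 at 2.27, Cox4i2 at 1.99 and Cox7b2 at 1.63 CPM per kb. Summed levels of complex V were 3692 and 3623 CPM per kb with DMSO against 2889 and 2798 with TSA in wild type cells, and 3735 and 3880 against 2835 and 2759 in TKO cells. Every TSA library was below every DMSO library there. Complex I sums were 3465 and 3334 CPM per kb with DMSO against 3050 and 2892 with TSA in wild type cells, and 3528 and 3638 against 3055 and 2983 in TKO cells, with the same order. Complex III sums were 1251 and 1237 CPM per kb with DMSO against 1182 and 1149 with TSA in wild type cells, and 1312 and 1372 against 1180 and 1178 in TKO cells, and complex IV sums were 2704 and 2560 CPM per kb with DMSO against 2818 and 2779 with TSA in wild type cells, and 2338 and 2517 against 2450 and 2558 in TKO cells. For complex IV the TSA libraries were above their own DMSO controls in wild type and overlapped with them in TKO. These sums were made with TMM scaling alone, so the order of TSA and DMSO libraries holds for that scaling only. The TMM factors were 0.929 to 0.955 in DMSO libraries and 1.04 to 1.08 in TSA libraries. In wild type the median log2 fold change of complex I with TSA was -0.22 with TMM and -0.02 with total counts. For complex III it was -0.15 and 0.06. Sums of this kind are set by the few most abundant members, and the counts of genes below treat each member alike.

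**Figure D1:**
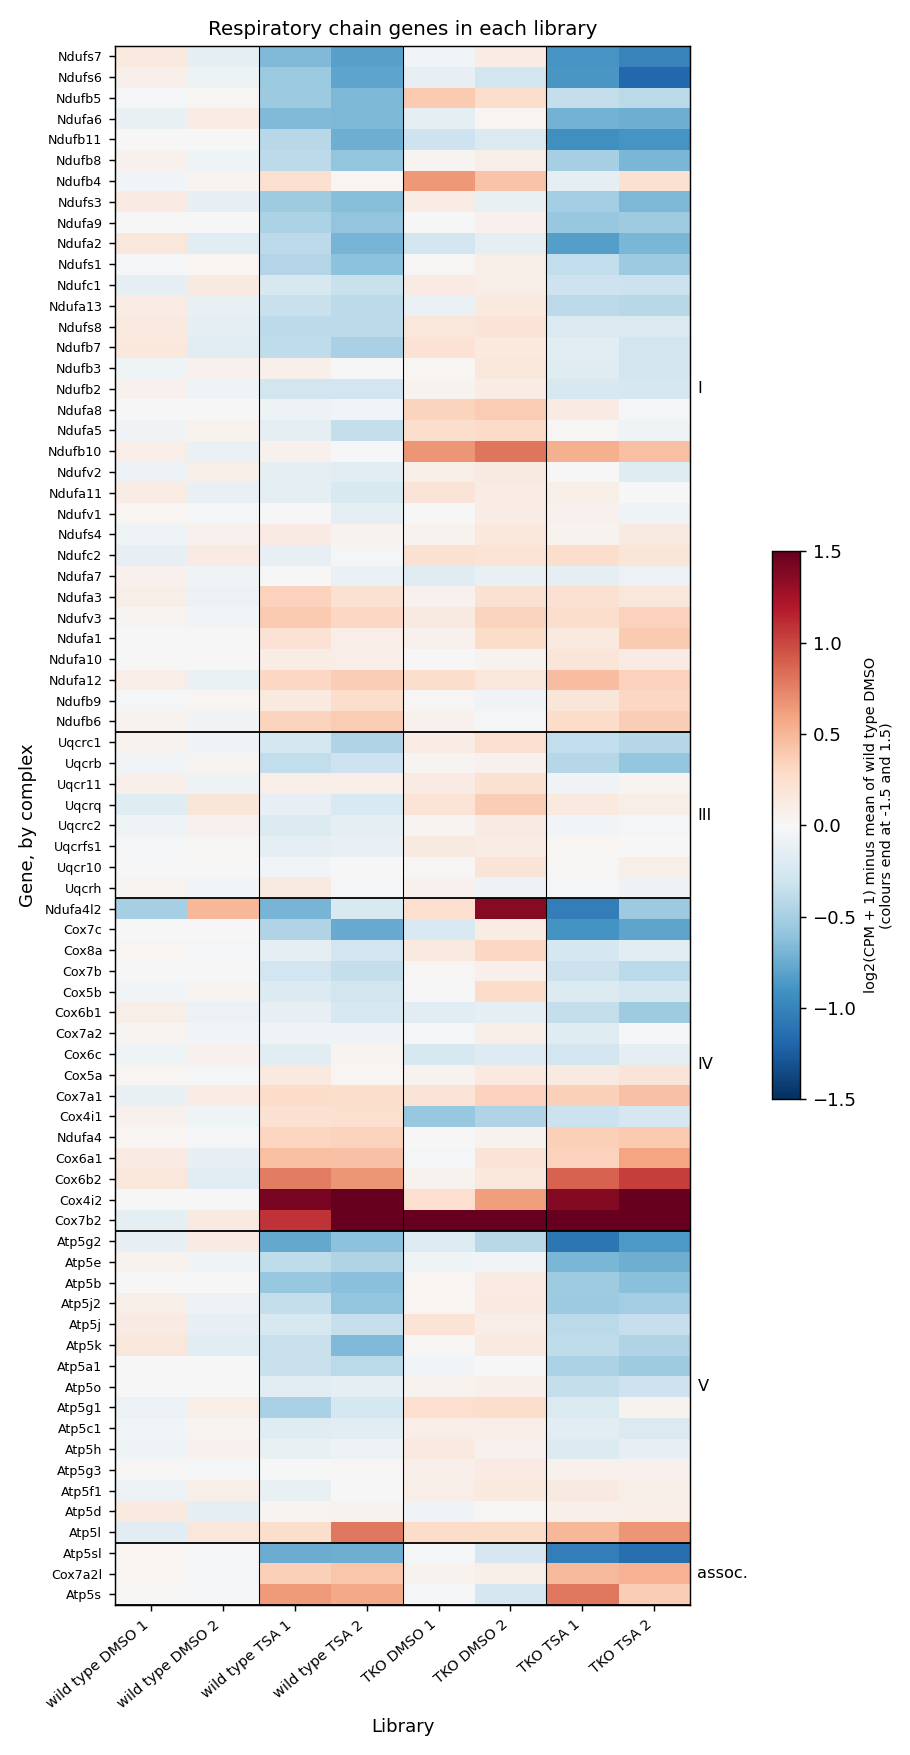
Level of 75 tested respiratory chain genes (rows, grouped by complex) in each of the 8 libraries (columns), as log2(CPM + 1) minus the mean of the wild type DMSO libraries. Colours end at -1.5 and 1.5. Blue cells are common in the TSA columns of complexes I and V, while the red rows of complex IV are led by Cox7b2, at 31.5 and 33.8 CPM in TKO TSA against 0.714 and 1.05 in wild type DMSO.

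TSA changed the respiratory chain genes in both directions, with more decreases than increases, and the size of that excess depends on the scaling. In wild type cells 28 of the 76 tested members were lower and 11 higher with TSA (edgeR quasi-likelihood test, Benjamini-Hochberg adjusted p below 0.05 over 15822 genes). Among all tested genes 25.9% were lower and 27% higher, 52.8% in either direction, against 36.8% and 14.5% of the tested members. In TKO cells 39 members were lower and 10 higher, or 51.3% and 13.2%, against a background of 27.9% lower and 30.8% higher, 58.7% together. The median log2 fold change of the members was -0.16 in wild type and -0.29 in TKO, where that of all tested genes was 0.01 and 0.04.

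Scaling by total counts instead of TMM gave 15 lower and 22 higher in wild type, so the excess turned round there, and 25 lower and 12 higher in TKO. Upper quartile scaling gave 19 lower and 16 higher in wild type and 32 lower and 10 higher in TKO. Of all tested genes it called 17.66% lower and 33.91% higher in wild type, and 23.94% and 33.73% in TKO. Total-count scaling moved the median of all tested genes to 0.22 in wild type and 0.19 in TKO. With that scaling 36.7% of all tested genes were called higher and 15.4% lower in wild type, and 37.3% and 20.6% in TKO. A library scaling shifts all genes alike, so the members' median relative to that of all genes is the same by construction, at -0.17 in wild type and -0.33 in TKO. Gene length moved with the result as well: the members have a median exon length of 649 bases, against 2805 for all tested genes. With an offset for the trend of each library's counts on exon length, the relative median was -0.05 in wild type and -0.07 in TKO. The calls were then 22 lower and 17 higher in wild type, and 25 lower and 18 higher in TKO. Of all tested genes 26.45% were lower and 26.12% higher in wild type with this offset, and 28.55% and 29.43% in TKO. Leaving out wild type TSA replicate 2 gave 16 lower and 7 higher in wild type, and leaving out wild type DMSO replicate 2 gave 6 higher. In TKO, 26 were lower and 6 higher without TKO DMSO replicate 2, and 28 and 6 without TKO TSA replicate 2.

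**Figure D2:**
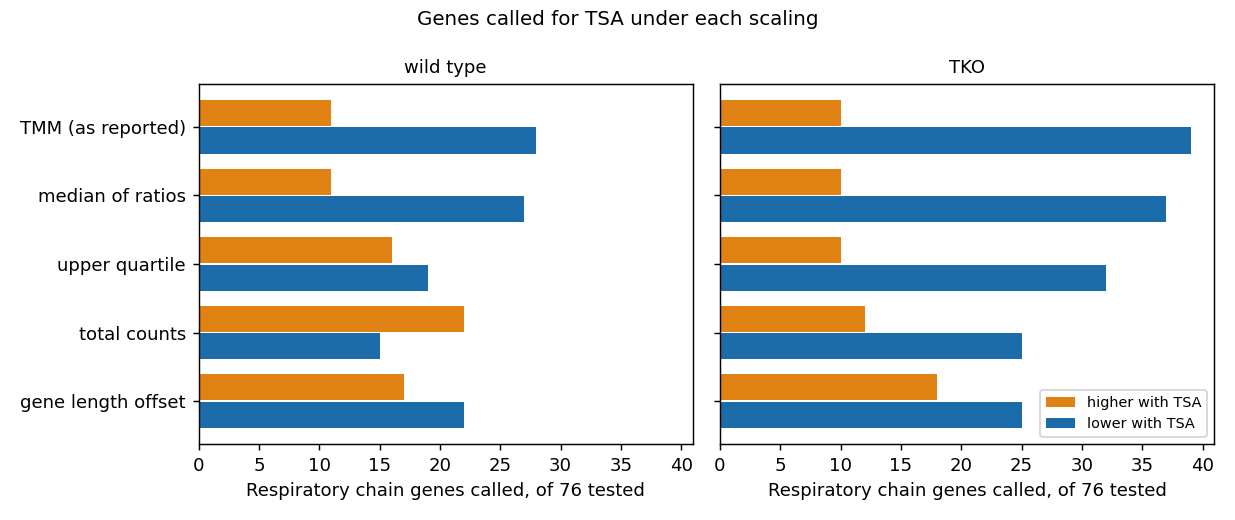
Number of tested respiratory chain genes called higher (orange) or lower (blue) with TSA in wild type (left) and TKO (right) cells, for 4 scalings of the libraries and for an offset on exon length. The bars start at 0; in wild type cells the lower calls run from 28 with TMM to 15 with total counts, while the higher calls run from 11 to 22.

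The TSA calls in the 2 genotypes come from contrasts that share no library. All 8 libraries entered a single fit with a shared estimate of the spread, so the 2 sets of calls are not fully independent. All 28 genes lower in wild type were also lower in TKO, where they make up 71.8% of the 39. Of the 11 higher in wild type, 9 were higher in TKO (81.8% of 11 and 90% of 10), and none was called in opposite directions. Among all tested genes, 3348 were lower in both (81.8% of those lower in wild type and 75.9% of those lower in TKO), and 3470 were higher in both (81.3% and 71.2%). The 11 genes called lower in TKO alone were Atp5c1, Atp5h, Atp5o, Cox5b, Cox6b1, Cox8a, Ndufa4l2, Ndufa5, Ndufa8, Ndufb3 and Ndufc1. The difference between the genotypes was tested for each member as the interaction, and no member passed. That test called 0 of 76 members by edgeR, 1 at an unadjusted p below 0.05 (Ndufb3, log2 difference -0.37 ± 0.16 SE) and 0 by DESeq2. Among all tested genes 0.879% had a higher and 0.468% a lower TSA effect in TKO than in wild type.

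**Figure D3:**
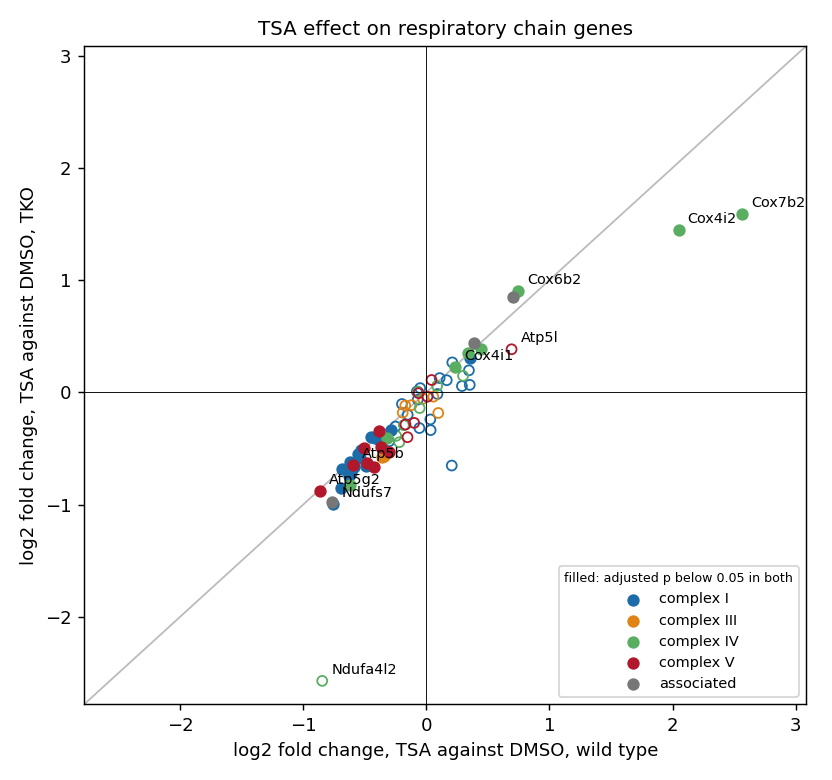
TSA effect on each tested respiratory chain gene in wild type (x axis) against TKO cells (y axis), both as log2 fold change of TSA over DMSO; colours mark the complex, filled points passed the test in both genotypes and the grey line marks equal effects. Cox7b2 and Cox4i2 lie far to the upper right, at 2.56 and 2.05 in wild type, and the 28 genes lower in both genotypes form the filled cloud at the lower left.

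Complex I, with the most members, also had the most decreases by number, while complex V had the larger share. With TSA, 15 of the 34 tested members of complex I were lower and 3 higher in wild type. In TKO 19 were lower and 2 higher. Of all tested genes 25.9% were lower and 27% higher in wild type, and 27.9% and 30.8% in TKO. The shares in complex I were 44.1% and 8.82% in wild type, and 55.9% and 5.88% in TKO. Total-count scaling gave 10 lower and 8 higher in wild type and 11 and 4 in TKO, and the length offset gave 14 lower and 6 higher in wild type and 12 and 7 in TKO. Upper quartile scaling gave 12 lower and 6 higher in wild type. Without wild type TSA replicate 2, 9 were lower and 1 higher in wild type, and 13 and 1 without wild type TSA replicate 1. In TKO 12 were lower and 0 higher without TKO DMSO replicate 2, and 13 and 0 without TKO TSA replicate 2. Ndufs3, Ndufs7 and Ndufs8, core subunits near the site where ubiquinone binds, were lower in both genotypes. Ndufs7, which holds the last iron-sulfur cluster before ubiquinone, was at 63.7 and 52.1 CPM with DMSO against 35.9 and 32.4 with TSA in wild type cells, and 55.8 and 62.1 against 30.9 and 28.4 in TKO cells. All TSA libraries were below all DMSO libraries. Its log2 fold change was -0.76 ± 0.13 SE in wild type (adjusted p = 0.000601) and -0.99 ± 0.13 in TKO (adjusted p = 7.74e-05), and it was the complex I subunit with the largest decrease in TKO. Ndufs8, which carries a further pair of iron-sulfur clusters, was at 47.7 and 38.7 CPM with DMSO against 32.4 and 32.5 with TSA in wild type cells, and 48.5 and 49.2 against 36.8 and 36.9 in TKO cells, and was lower with TSA in both genotypes. Its wild type call was lost with total-count and upper quartile scaling, and without wild type DMSO replicate 1 or either wild type TSA library. Ndufs3 fell by 0.62 ± 0.14 on the log2 scale in wild type.

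In the NADH-binding module 1 of 3 core genes was lower in each genotype. Ndufs1, its large iron-sulfur subunit, was at 347 and 364 CPM with DMSO against 262 and 231 with TSA in wild type cells, and 359 and 379 against 274 and 242 in TKO cells, and was lower with TSA in both genotypes, with log2 fold changes of -0.53 ± 0.10 and -0.51 ± 0.10. Ndufv1, which binds NADH and the flavin, was at 251 and 239.6 CPM with DMSO against 244 and 224 with TSA in wild type cells, and 247 and 266 against 257 and 234 in TKO cells, and its TSA and DMSO libraries overlapped in both genotypes. Its log2 fold change was -0.07 ± 0.09 in wild type (adjusted p = 0.547) and -0.06 ± 0.09 in TKO (adjusted p = 0.565). Ndufv2, its partner, had -0.15 ± 0.10 and -0.20 ± 0.10 and did not pass either. Ndufs6, an accessory subunit beside this module that binds zinc, was at 48.8 and 44.2 CPM with DMSO against 31.2 and 26.4 with TSA in wild type cells, and 42.6 and 38.2 against 24.8 and 20 in TKO cells, and fell in both genotypes, by 1.61-fold and 1.8-fold. Ndufs1, Ndufs3, Ndufs6 and Ndufs7 passed the test under all 15 alternatives in both genotypes.

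Of the 12 Ndufb and Ndufc genes tested, which encode some of the subunits of the membrane arm, 5 were lower and 1 higher with TSA in wild type. In TKO 7 were lower and 2 higher. Ndufb5 was at 94.3 and 96.5 CPM with DMSO against 65.2 and 59.3 with TSA in wild type cells, and 125 and 115 against 74.2 and 72.1 in TKO cells, and Ndufb8 at 142 and 129.6 CPM with DMSO against 103 and 89.5 with TSA in wild type cells, and 139 and 144 against 95.7 and 84.1 in TKO cells. Both were lower in every TSA library than in every DMSO library. Ndufb6 went the other way, at 85.8 and 79 CPM with DMSO against 104 and 107 with TSA in wild type cells, and 85.9 and 81.4 against 100.1 and 107 in TKO cells, and rose by 0.36 ± 0.09 and 0.31 ± 0.09 on the log2 scale. Among the 12 Ndufa genes of complex I, 4 were lower in wild type and 6 in TKO, and 1 and 0 were higher. Ndufa6, an LYR-motif protein, fell by 1.61-fold and 1.6-fold, and Ndufa9, which sits beside the ubiquinone site, by 1.45-fold and 1.5-fold. Ndufa10, at 162 and 162 CPM with DMSO against 176 and 174 with TSA in wild type cells, and 161 and 168 against 184 and 176 in TKO cells, did not pass in either genotype.

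The promoters of 2 ubiquinone-module genes, of the ATP synthase β subunit and of Cox6a1, a widely expressed complex IV subunit that rose with TSA, are shown because these genes moved together or against each other. Sequences are from RefSeq on GRCm38.p6, 250 bases before to 50 after the start site, 5′ to 3′ along the gene. Capitals mark the letters AANATGG of YY1 in Ndufs7, Ndufs8 and Atp5b, CCGGAAG of GABPA in Ndufs8 and Cox6a1, and GCGCANGCGC of NRF1 in Cox6a1, each on either strand. These factors are known to bind many respiratory gene promoters. The windows are chr10:80249199-80249498 on the plus strand for Ndufs7, chr19:3912725-3913024 on the minus strand for Ndufs8, chr10:128083057-128083356 on the plus strand for Atp5b and chr5:115348909-115349208 on the minus strand for Cox6a1.
Ndufs7: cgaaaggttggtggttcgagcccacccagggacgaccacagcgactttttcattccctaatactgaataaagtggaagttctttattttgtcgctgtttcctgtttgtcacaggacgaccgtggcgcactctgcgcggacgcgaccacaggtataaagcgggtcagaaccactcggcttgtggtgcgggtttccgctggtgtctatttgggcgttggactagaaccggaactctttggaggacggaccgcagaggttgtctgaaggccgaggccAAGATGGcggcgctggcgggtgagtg
Ndufs8: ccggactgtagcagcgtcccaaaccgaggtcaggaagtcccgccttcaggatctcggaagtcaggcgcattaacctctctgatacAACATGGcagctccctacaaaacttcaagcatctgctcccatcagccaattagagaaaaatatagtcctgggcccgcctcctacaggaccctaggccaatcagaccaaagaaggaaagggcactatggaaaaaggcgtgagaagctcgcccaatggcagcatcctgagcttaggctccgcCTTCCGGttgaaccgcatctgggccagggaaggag
Atp5b: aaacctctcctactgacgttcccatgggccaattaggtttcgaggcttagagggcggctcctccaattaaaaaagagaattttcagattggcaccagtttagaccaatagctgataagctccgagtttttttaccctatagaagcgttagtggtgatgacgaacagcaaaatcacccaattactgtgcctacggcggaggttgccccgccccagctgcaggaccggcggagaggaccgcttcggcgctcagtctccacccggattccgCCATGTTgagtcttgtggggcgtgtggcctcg
Cox6a1: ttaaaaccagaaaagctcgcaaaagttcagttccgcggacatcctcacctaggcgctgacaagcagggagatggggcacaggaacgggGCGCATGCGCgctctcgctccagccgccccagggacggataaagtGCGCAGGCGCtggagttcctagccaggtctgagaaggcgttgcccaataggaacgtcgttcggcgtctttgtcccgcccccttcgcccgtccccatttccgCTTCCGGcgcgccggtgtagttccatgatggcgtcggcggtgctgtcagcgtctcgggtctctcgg

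Of the 80 members 63 matched an entry in the promoter table. Their promoters held a median of 19 CpG dinucleotides (2 to 43) against 14 in all 16344 promoters, and 59 held 10 or more. The NRF1 letters were in 22.2% of the members' promoters and 6.74% of all, the GABPA letters in 20.6% and 12.1%, and the YY1 letters in 27% and 15.5%. The SP1 letters GGGCGGG (31.7% and 35%) and the MAX letters CACGTG (7.94% and 8.25%) were about as frequent in both. All motifs were searched on both strands, and none of them contains another. Of the 22 members lower with TSA in both genotypes that have an entry, 12 (54.5%) held the YY1 letters, against 5 of the 39 other tested members (12.8%). The 12 were Atp5b, Atp5j2, Atp5k, Cox7b, Cox7c, Ndufa9, Ndufb11, Ndufb5, Ndufb8, Ndufs6, Ndufs7 and Ndufs8, and in 9 of them a match lay within 50 bases of the start site. The same held for 4 of the 5 other tested members with these letters. In all tested genes with an entry the same letters were in 22.5% of 2473 genes lower in both and in 12.2% of the other 8923. The NRF1 letters were in 22.7% and 20.5% of these 2 sets of members, and the GABPA letters in 22.7% and 20.5%. A match describes letters and not binding, and these counts were not tested.

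In complex V no member was called higher with TSA, while 8 of 15 fell in wild type and 11 in TKO. Of all tested genes 25.9% were lower and 27% higher in wild type, and 27.9% and 30.8% in TKO. The shares lower in complex V were 53.3% and 73.3%. With total counts 3 were lower and 2 higher in wild type and 7 and 0 in TKO, and with the length offset 4 were lower and 1 higher in wild type and 7 and 0 in TKO. In wild type 5 were lower and 1 higher with upper quartile scaling or without wild type TSA replicate 1, and 5 were lower with DESeq2. In TKO 7 were lower without TKO DMSO replicate 1. Atp5b (chromosome 10, 128083307 to 128090388), the catalytic β subunit, was at 2355 and 2354 CPM with DMSO against 1582 and 1529 with TSA in wild type cells, and 2405 and 2556 against 1630 and 1530 in TKO cells. Every TSA library was below every DMSO library, at a log2 fold change of -0.60 ± 0.08 (adjusted p = 0.00022) and -0.65 ± 0.08 (adjusted p = 8.35e-05). Atp5b alone took 20.4% to 21.3% of all counts on members in the DMSO libraries and 16.1% to 17.0% in the TSA libraries. The members together took 0.994% to 1.15% of all counts. Atp5a1, the α subunit that alternates with β in the head, was at 1690 and 1689 CPM with DMSO against 1339 and 1279 with TSA in wild type cells, and 1642 and 1685 against 1217 and 1163 in TKO cells, and fell by 1.29-fold and 1.4-fold. Atp5e, the ε subunit at the foot of the central stalk, fell by 0.66 ± 0.10 on the log2 scale in TKO, and Atp5d, the δ subunit next to it, was at 76.2 and 61.9 CPM with DMSO against 70.8 and 71.5 with TSA in wild type cells, and 66.1 and 69.4 against 72.5 and 73.8 in TKO cells, and did not pass in either genotype.

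The 3 genes for subunit c of the membrane ring, which encode the same mature protein behind different import sequences, did not move alike. Atp5g3, the most abundant of them, was at 212 and 207 CPM with DMSO against 209.6 and 212 with TSA in wild type cells, and 222 and 228 against 219 and 218 in TKO cells, with overlapping TSA and DMSO libraries in wild type. Atp5g1 was at 31.3 and 35.4 CPM with DMSO against 23.6 and 27.6 with TSA in wild type cells, and 39.8 and 40.2 against 28.5 and 34.6 in TKO cells, and was lower with TSA in both genotypes (adjusted p = 0.0355 and 0.0478), a call that 8 of 15 alternatives lost in each genotype. Atp5g2 was at 4.85 and 6 CPM with DMSO against 2.75 and 3.19 with TSA in wild type cells, and 4.58 and 3.78 against 2.03 and 2.51 in TKO cells, and was 1.82-fold and 1.84-fold lower, from few counts. In the peripheral stalk, which holds the head still, 1 of 4 genes was lower in wild type (Atp5j) and 3 of 4 in TKO (Atp5h, Atp5j and Atp5o), while Atp5f1 was not called. Of 15 alternatives, 13 lost the wild type call of Atp5j and 10 the TKO call of Atp5h. Atp5j2 and Atp5k, whose proteins sit where 2 synthases join, were lower in both genotypes. The Atp5k call in wild type was lost with total-count scaling, upper quartile scaling or the length offset, and without wild type DMSO replicate 1 or wild type TSA replicate 2.

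Of the 8 members of complex III, 2 were lower with TSA in both genotypes and none was higher. The lower share of 25% was near that of all tested genes, 25.9% in wild type and 27.9% in TKO. Of all tested genes 27% and 30.8% were higher. Uqcrc1, a core protein of the matrix side, was at 354 and 328 CPM with DMSO against 284 and 249 with TSA in wild type cells, and 369.7 and 402 against 265 and 253 in TKO cells, with log2 fold changes of -0.36 ± 0.10 (adjusted p = 0.00908) and -0.57 ± 0.10 (adjusted p = 0.000425). Uqcrb, which binds near the ubiquinone site, fell by 1.27-fold and 1.49-fold, and 7 of 15 alternatives lost its wild type call. Uqcrc2, the other core protein, and Uqcrfs1, the Rieske iron-sulfur protein, did not pass, the latter at 155 and 159.6 CPM with DMSO against 144 and 146 with TSA in wild type cells, and 173 and 170.1 against 160.4 and 157 in TKO cells. Uqcrh, the hinge protein that contacts cytochrome c, was at 129 and 122 CPM with DMSO against 138 and 123 with TSA in wild type cells, and 132 and 118 against 124 and 119 in TKO cells, with overlapping groups. The median of the complex was -0.15 in wild type and -0.15 in TKO, and was 0.06 in wild type with total counts, where 2 members were called higher and 0 lower. In TKO it was -0.0015 with total counts and 0.03 with the length offset, where 1 member was higher and 2 lower. In wild type 0 were called in either direction with upper quartile scaling, and 0 without wild type TSA replicate 2.

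In complex IV some members rose and others fell. With TSA, 6 of its 16 tested members were higher (37.5%) and 2 lower (12.5%) in wild type. In TKO 6 were higher and 6 lower, 37.5% each. Of all tested genes 27% were higher and 25.9% lower in wild type, and 30.8% and 27.9% in TKO. Complex IV supplied 6 of the 11 members called higher in wild type and 6 of the 10 in TKO. With total counts complex IV supplied 8 of 22 in wild type and 6 of 12 in TKO. Its median was 0.02 and 0.03, and changed sign in wild type without the filter on low counts (-0.06) and with DESeq2 (-0.04), and in TKO without the filter (-0.03), without TKO DMSO replicate 1 (-0.01) and without TKO TSA replicate 2 (-0.02). Total-count scaling gave 8 higher and 1 lower in wild type (median 0.22) and 6 and 4 in TKO (0.18). Upper quartile scaling gave 7 and 1 (0.17), and 6 and 4 (0.11). The length offset gave 7 and 2 (0.16), and 8 and 3 (0.27). Without wild type TSA replicate 2, 5 were higher and 0 lower in wild type, and without TKO DMSO replicate 2, 5 were higher and 3 lower in TKO. Without TKO TSA replicate 2, 4 were higher and 4 lower there. The 6 genes higher in both genotypes were the widely expressed Cox4i1, Cox6a1 and Ndufa4 and the tissue-restricted Cox4i2, Cox6b2 and Cox7b2. Ndufa4 was at 148 and 143 CPM with DMSO against 183 and 185 with TSA in wild type cells, and 146 and 152 against 187 and 192 in TKO cells, and rose by 0.34 ± 0.08 and 0.35 ± 0.08 on the log2 scale, with all TSA libraries above all DMSO libraries. Cox6a1 was at 70.7 and 59.1 CPM with DMSO against 89 and 87.7 with TSA in wild type cells, and 63.5 and 73.9 against 82.2 and 97.6 in TKO cells. Cox7c and Cox7b, small subunits of the membrane domain, fell in both genotypes, Cox7c from 36.1 and 35.8 to 26 and 20.9 CPM in wild type. Cox5a, a matrix-side subunit, was at 133 and 128 CPM with DMSO against 145 and 133 with TSA in wild type cells, and 136 and 145 against 143 and 149 in TKO cells, and did not pass. Among the associated proteins, Cox7a2l, a factor that joins complexes III and IV into supercomplexes, rose by 0.39 ± 0.08 and 0.44 ± 0.08. Atp5sl, now known as a complex I assembly protein, fell by 1.7-fold and 1.97-fold. Atp5s, at 3.93 to 9.13 CPM, was higher with TSA in both genotypes.

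The tissue-restricted members of complex IV were described in every library whatever their level. The promoters of Cox7b2 and Cox6b2, which rose with TSA, of Cox7a1, which did not pass, and of Ndufb10, which differed between the genotypes, are shown because DNA methylation acts on CpG dinucleotides, which are in capitals. They come from RefSeq on GRCm38.p6 with the same window. The windows are chr5:71548156-71548455 on the minus strand for Cox7b2 with 10 CpG, chr7:4753045-4753344 on the minus strand for Cox6b2 with 10, chr7:30183921-30184220 on the plus strand for Cox7a1 with 7, and chr17:24724374-24724673 on the minus strand for Ndufb10 with 15. Methylation of these CpG was not measured in the libraries used here.
Cox7b2: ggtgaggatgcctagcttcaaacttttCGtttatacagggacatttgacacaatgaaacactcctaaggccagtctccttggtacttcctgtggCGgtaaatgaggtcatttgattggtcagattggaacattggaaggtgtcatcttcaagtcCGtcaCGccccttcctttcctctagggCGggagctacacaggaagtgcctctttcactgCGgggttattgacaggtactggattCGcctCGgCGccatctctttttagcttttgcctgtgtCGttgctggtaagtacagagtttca
Cox6b2: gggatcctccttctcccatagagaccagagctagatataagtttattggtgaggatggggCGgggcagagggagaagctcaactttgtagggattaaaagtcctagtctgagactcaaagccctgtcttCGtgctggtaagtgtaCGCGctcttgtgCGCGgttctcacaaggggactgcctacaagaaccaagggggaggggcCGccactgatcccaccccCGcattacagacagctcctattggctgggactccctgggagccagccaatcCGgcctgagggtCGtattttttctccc
Cox7a1: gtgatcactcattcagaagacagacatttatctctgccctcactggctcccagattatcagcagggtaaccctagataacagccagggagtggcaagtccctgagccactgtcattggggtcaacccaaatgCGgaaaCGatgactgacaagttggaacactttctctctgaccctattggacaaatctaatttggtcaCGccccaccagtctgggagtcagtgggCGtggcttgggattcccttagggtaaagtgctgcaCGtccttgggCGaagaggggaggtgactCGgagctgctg
Ndufb10: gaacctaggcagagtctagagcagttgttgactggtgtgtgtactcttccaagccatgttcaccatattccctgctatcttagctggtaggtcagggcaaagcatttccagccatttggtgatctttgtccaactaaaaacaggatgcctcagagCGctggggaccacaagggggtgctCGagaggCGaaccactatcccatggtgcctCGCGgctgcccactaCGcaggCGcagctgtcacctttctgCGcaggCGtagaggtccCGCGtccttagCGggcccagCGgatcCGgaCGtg

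Cox7b2 (chromosome 5, 71442823 to 71548205), the testis form of subunit VIIb, was higher with TSA in both genotypes and higher in TKO with both treatments. It had 10 and 13 counts with DMSO against 49 and 111 with TSA in wild type cells, and 169 and 139 against 466 and 538 in TKO cells. In CPM the groups do not overlap, and wild type DMSO was lowest with 0.714 and 1.05, followed by wild type TSA (2.99 and 7.54), TKO DMSO (11.6 and 10.1) and TKO TSA (31.5 and 33.8). TSA raised it by 2.56 ± 0.45 on the log2 scale in wild type (adjusted p = 0.000861) and by 1.59 ± 0.28 in TKO (adjusted p = 0.00064). It was 12.3-fold higher in TKO than in wild type with DMSO and 6.25-fold higher with TSA. The interaction was -0.97 ± 0.56 (adjusted p = 0.468), so a difference between the TSA effects was not shown. Per kilobase, the share of Cox7b2 in the sum with Cox7b, its widely expressed partner, was 0.753 and 1.1 percent with DMSO against 3.73 and 9.29 with TSA in wild type cells, and 10.8 and 9.21 against 29.4 and 32.1 in TKO cells. The 2 wild type TSA libraries lay apart. The wild type effect was 1.76 without replicate 2 of that group and 3.09 without replicate 1, on the log2 scale. The difference between the genotypes with TSA was 3.44 without replicate 2 and 2.11 without replicate 1.

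Cox4i2, a form of subunit IV known from lung and from low oxygen, was at 1.43 and 1.46 CPM with DMSO against 5.56 and 6.46 with TSA in wild type cells, and 1.92 and 2.77 against 5.34 and 7.35 in TKO cells. All TSA libraries were above all DMSO libraries, with 2.05 ± 0.30 in wild type (adjusted p = 0.000262) and 1.44 ± 0.27 in TKO (adjusted p = 0.00101). Its share of the sum with Cox4i1, per kilobase, was 0.222 and 0.247 percent with DMSO against 0.764 and 0.882 with TSA in wild type cells, and 0.459 and 0.613 against 1.08 and 1.4 in TKO cells. Cox6b2, the testis form of subunit VIb, was at 14.8 and 11.6 CPM with DMSO against 23.1 and 21.3 with TSA in wild type cells, and 13.7 and 14.7 against 25 and 27.9 in TKO cells, and rose 1.67-fold and 1.86-fold. Its share of the sum with Cox6b1 was 7.24 and 6.43 percent with DMSO against 12.3 and 12.3 with TSA in wild type cells, and 7.83 and 8.33 against 15.2 and 18.4 in TKO cells. Neither gene was called between the genotypes. Cyct, the testis form of cytochrome c and no member by the rule, also rose with TSA, at 2 and 4.13 CPM with DMSO against 12.3 and 23.2 with TSA in wild type cells, and 6.09 and 7.86 against 27.9 and 30 in TKO cells, and was higher in TKO with DMSO (1.20 ± 0.37, adjusted p = 0.0423).

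Germ cell markers also changed, more of them upward than downward. With TSA 7 of 10 were higher and 1 lower (Hormad1) in wild type, and 6 were higher and 2 lower (Ddx4 and Hormad1) in TKO. Of all tested genes 27% were higher and 25.9% lower in wild type, and 30.8% and 27.9% in TKO. Between genotypes 5 of the 10 markers were higher in TKO with DMSO, and 4 were higher and 1 lower (Ddx4) with TSA. The shares of all tested genes there were 9.63% higher and 10.7% lower with DMSO, and 10% and 8.38% with TSA. Asz1 was at 0.428 and 0.73 CPM with DMSO against 1.95 and 4.55 with TSA in wild type cells, and 16.4 and 18.5 against 69.6 and 73.2 in TKO cells, and Dazl at 8.42 and 12.3 CPM with DMSO against 25.8 and 58.2 with TSA in wild type cells, and 134 and 148 against 268 and 259 in TKO cells. Asz1 and Dazl were among the markers that rose, and Hormad1 and Ddx4 moved differently. Over the 10 markers the log2 fold change with TSA ran from -0.93 to 3.52 in wild type and from -1.965 to 3.64 in TKO. The sums over the list are given above, and none of the 10 markers was at 3 counts or fewer in every library. The part of these markers in the Cox7b2, Cox6b2 and Cyct values was not tested. Fibroblast and mesenchymal markers also rose with TSA, 4 of 7 tested in wild type (1 fell) and 7 of 7 in TKO, and embryonic stem cell markers fell, 5 of 7 in each genotype. Their part in the changes of the respiratory chain genes was not tested.

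The muscle forms were not called. Cox7a1, the muscle form of subunit VIIa, was at 6.07 and 7.29 CPM with DMSO against 8.24 and 8.15 with TSA in wild type cells, and 7.73 and 8.73 against 8.8 and 9.42 in TKO cells. Its TSA libraries were above the DMSO libraries of the same genotype, yet the fold changes of 0.30 ± 0.19 and 0.15 ± 0.18 did not pass (adjusted p = 0.2 and 0.504). It passed in wild type with total counts (0.50) and in both genotypes with the length offset (0.55 and 0.52). The share of Cox7a1 in the sum with Cox7a2 was 9.39 and 11.7 percent with DMSO against 13.1 and 13 with TSA in wild type cells, and 12.1 and 12.7 against 14.9 and 14.5 in TKO cells. Cox6a2 and Cox8b, the muscle forms of subunits VIa and VIII, and Cox8c, a testis form, were at or near the limit of 3 counts in nearly all libraries, so a difference was not detectable at this depth. Among the muscle markers Ttn, the gene of the giant sarcomere protein titin, was at 259.8 and 181 CPM with DMSO against 24.7 and 31.7 with TSA in wild type cells, and 195 and 139.9 against 26.9 and 41.6 in TKO cells. Of 11 markers tested, 2 were higher (18.2%) and 3 lower (27.3%) with TSA in each genotype. Of all tested genes 27% were higher and 25.9% lower in wild type, and 30.8% and 27.9% in TKO. The muscle list summed to 312 and 220.2 CPM with DMSO against 76.6 and 75.8 with TSA in wild type cells. In TKO cells it summed to 227 and 175 against 62.4 and 77.3. Without Ttn the sums were 52.7 and 38.9 CPM with DMSO against 51.9 and 44.1 with TSA in wild type cells, and 31.9 and 34.9 against 35.5 and 35.7 in TKO cells. Ckmt2 was at 3 counts or fewer in every library.

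Ndufa4l2, a paralogue of Ndufa4 that is induced in low oxygen, was at 1.14 and 3.24 CPM with DMSO against 0.855 and 1.56 with TSA in wild type cells, and 2.6 and 6.77 against 0.474 and 1.07 in TKO cells. The 2 libraries of each group lay far apart, and the wild type groups overlap. It was 5.94-fold lower with TSA in TKO (adjusted p = 0.00401), and without TKO DMSO replicate 2 the log2 fold change moved from -2.57 to -1.74 and the adjusted p was 0.0538. Of 9 tested genes of the hypoxia response, none was higher with TSA. In wild type 3 were lower (33.3%, against 25.9% of all tested genes) and in TKO 5 (55.6%, against 27.9%). Bnip3, a mitophagy receptor, was at 34.5 and 64.3 CPM with DMSO against 21.7 and 26.3 with TSA in wild type cells, and 68.5 and 72.1 against 32.1 and 36.7 in TKO cells, and Pdk1, which restrains entry of pyruvate into mitochondria, at 410 and 447 CPM with DMSO against 258 and 192 with TSA in wild type cells, and 400.4 and 377 against 226 and 139 in TKO cells. Bnip3 and Pdk1 were lower with TSA in both genotypes. Epas1, which encodes a hypoxia-inducible factor, was higher in TKO with both treatments.

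**Figure D4:**
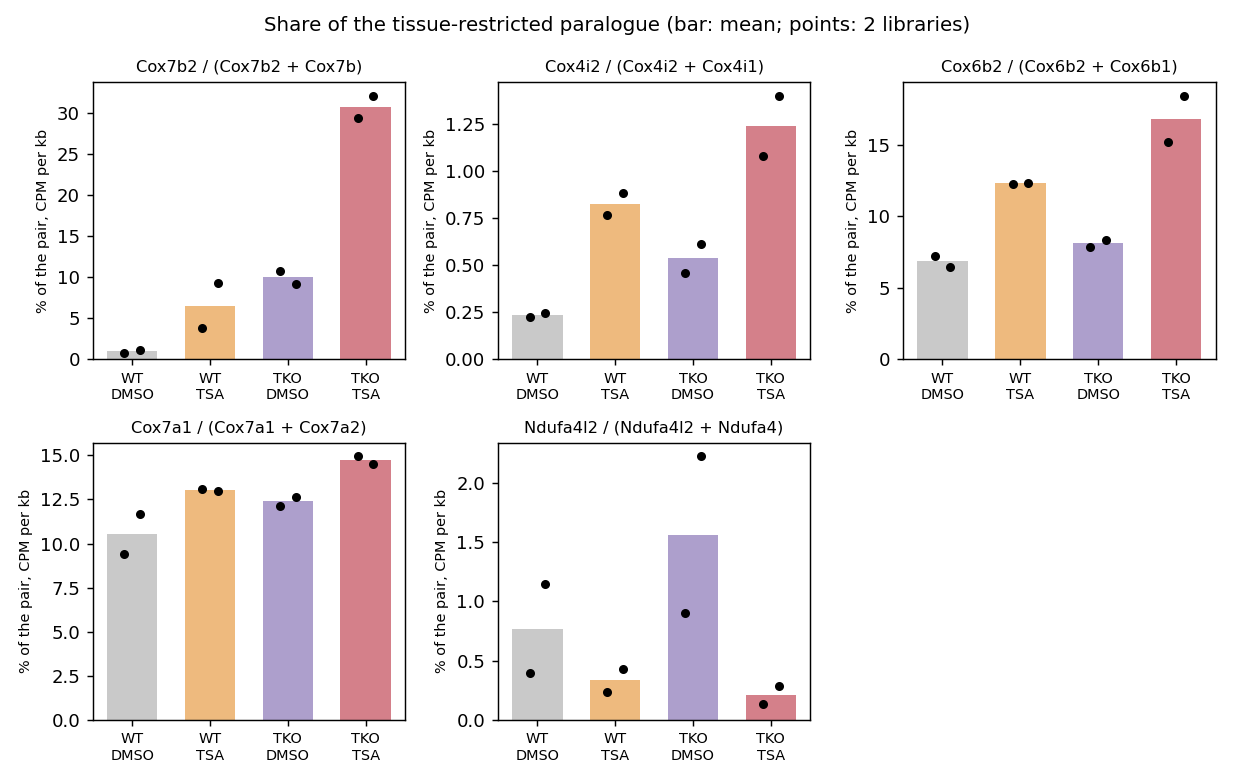
Share of the tissue-restricted gene in the sum with its widely expressed partner, in percent of CPM per kilobase, for 5 pairs in the 4 groups; bars start at 0 and show the mean, points show the 2 libraries. The mean Cox7b2 share is 30.8% in TKO TSA, against 0.927% in wild type DMSO, while the 2 libraries of each group lie far apart for Ndufa4l2.

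Few respiratory chain genes differed between the TKO and wild type libraries. With DMSO, 4 of 76 tested members were higher in TKO (5.26%, against 9.63% of all tested genes) and 1 was lower (1.32%, against 10.7%). With TSA, 2 were higher (2.63%, background 10%) and 1 was lower (1.32%, background 8.38%). The higher genes with DMSO were Cox7b2, Ndufb10, Ndufb5 and Ndufa8, and Cox7b2 and Ndufb10 were also the higher genes with TSA. Cox4i1 was the lower gene in both. The median log2 fold change of the members was 0.08 with DMSO and 0.0007 with TSA, beside -0.0054 and 0.0044 for all tested genes.

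Ndufb10 (chromosome 17, 24722067 to 24724388), a disulfide-bonded subunit of the membrane arm, was at 61.1 and 52.9 CPM with DMSO against 59.7 and 57 with TSA in wild type cells, and 90.2 and 100.2 against 82.8 and 78.3 in TKO cells. All 4 TKO libraries were above all 4 wild type libraries, by 0.74 ± 0.11 on the log2 scale with DMSO (adjusted p = 0.000851) and 0.47 ± 0.11 with TSA (adjusted p = 0.0119). The second call was lost without wild type TSA replicate 1 or 2 or TKO TSA replicate 1, with edgeR adjusted p values of 0.0636, 0.0683 and 0.0605. Cox4i1 (chromosome 8, 120668290 to 120674209), the widely expressed subunit IV, was at 599 and 551 CPM with DMSO against 674 and 677 with TSA in wild type cells, and 388 and 418 against 458 and 483 in TKO cells. Every TKO library was below every wild type library, at -0.51 ± 0.09 (adjusted p = 0.00224) and -0.52 ± 0.09 (adjusted p = 0.00251), and both calls held under all 15 alternatives. TSA raised Cox4i1 a little in each genotype, by 0.23 ± 0.09 and 0.22 ± 0.09, with adjusted p of 0.0423 and 0.0469, and 8 of the 15 alternatives lost that call in each. Ndufa8 was at 41.2 and 40.9 CPM with DMSO against 39 and 40 with TSA in wild type cells, and 52.1 and 53.8 against 44.8 and 40.2 in TKO cells, 1.29-fold higher in TKO with DMSO (adjusted p = 0.0292). Ndufb5 was 1.26-fold higher (adjusted p = 0.0286). Both calls were lost without any 1 of the 4 DMSO libraries. In all, 2 members were higher in TKO with DMSO without wild type DMSO replicate 1, TKO DMSO replicate 1 or TKO DMSO replicate 2.

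**Figure D5:**
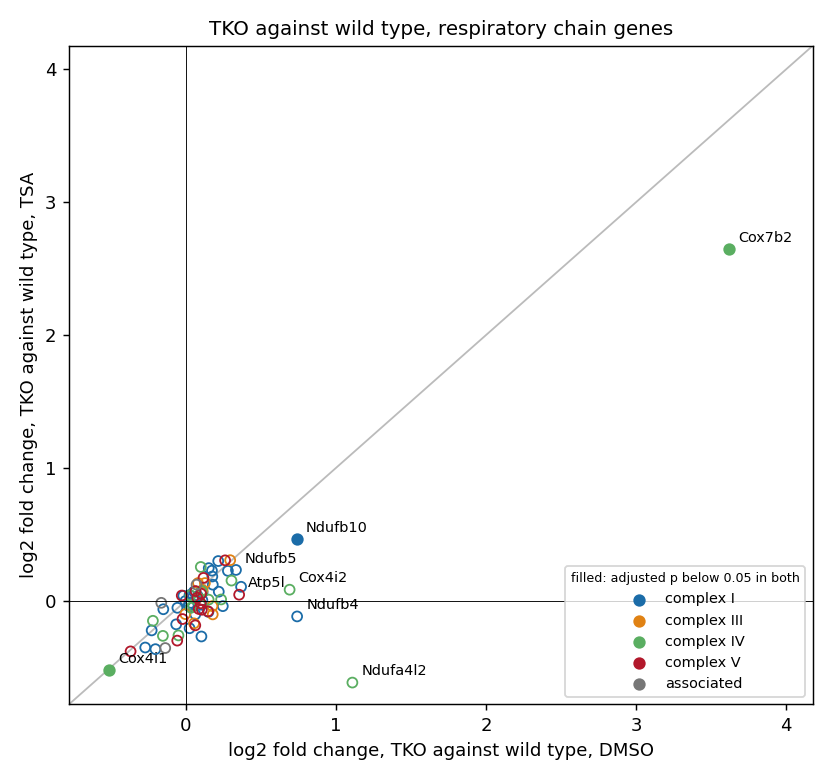
Difference between TKO and wild type cells for each tested respiratory chain gene with DMSO (x axis) and with TSA (y axis), as log2 fold change of TKO over wild type; colours mark the complex, filled points passed the test under both treatments, and the grey line marks equal effects. Cox7b2 (3.62 and 2.65), Ndufb10 (0.74 and 0.47) and Cox4i1 (-0.51 and -0.52) are the filled points, and the rest gather near 0.

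Other genes of the pathway were taken from lists that were chosen with earlier results of these data known. Complex II lies outside the symbol rule. Its 4 subunits were lower with TSA in both genotypes, among them Sdha, the flavoprotein, at 304 and 289.8 CPM with DMSO against 234 and 224 with TSA in wild type cells, and 306 and 284 against 236 and 225 in TKO cells, and Sdhb, the iron-sulfur protein, with -0.54 ± 0.09 and -0.67 ± 0.09. Over the 9 subunits and partners outside the rule, 6 were lower (66.7%) and 1 higher (11.1%) in wild type. In TKO 5 were lower (55.6%) and 1 higher (11.1%). Of all tested genes 25.9% were lower and 27% higher in wild type, and 27.9% and 30.8% in TKO. The medians of the 9 were -0.38 and -0.36. The higher gene was Cycs, the somatic cytochrome c, at 7.21 and 9.81 CPM with DMSO against 14.3 and 12.6 with TSA in wild type cells, and 10.3 and 10.8 against 16.3 and 14.4 in TKO cells. Atpif1, which inhibits the ATP synthase when it runs in reverse, was lower with -0.61 ± 0.09 and -0.65 ± 0.09. None of the 9 was called between genotypes.

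Among 15 tested assembly factors of complex I, 9 were lower (60%) and 2 higher (13.3%) with TSA in wild type. In TKO 8 were lower (53.3%) and 4 higher (26.7%). The shares of all tested genes were 25.9% lower and 27% higher in wild type, and 27.9% and 30.8% in TKO. Ecsit was at 71.9 and 59.1 CPM with DMSO against 32 and 25.2 with TSA in wild type cells, and 69.5 and 67 against 33.6 and 32.3 in TKO cells, with log2 fold changes of -1.19 ± 0.14 and -1.05 ± 0.14. Timmdc1, a membrane-arm assembly factor, rose by 0.63 ± 0.11 and 0.61 ± 0.11. Of 20 tested factors of complex IV, 6 were lower (30%) and 3 higher (15%) in wild type, and 9 lower (45%) and 2 higher (10%) in TKO. Surf1, which acts early in complex IV assembly, was at 38.8 and 37.4 CPM with DMSO against 25 and 21.9 with TSA in wild type cells, and 25.9 and 28.1 against 20.2 and 19.1 in TKO cells, lower with TSA in both genotypes and lower in TKO with DMSO (adjusted p = 0.0155). Cox17, a copper chaperone, was higher with TSA in both. Of 3 tested factors of complex III, 1 was higher in wild type (Bcs1l, which inserts the Rieske protein) and 2 in TKO. Both tested factors of complex V, Atpaf1 and Atpaf2, were lower with TSA in both genotypes. Between genotypes, Atpaf1 was higher in TKO with DMSO, Ndufaf1 and Tmem70 were higher with TSA, and Coa6 and Pet100 were lower with both.

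Of the regulators of respiratory genes, 5 of 15 tested were lower (33.3%) and 2 higher (13.3%) with TSA in wild type. In TKO 4 were lower (26.7%) and 2 higher (13.3%). The shares of all tested genes were 25.9% lower and 27% higher in wild type, and 27.9% and 30.8% in TKO. Hcfc1, a transcriptional cofactor, was at 391 and 365 CPM with DMSO against 210.2 and 207 with TSA in wild type cells, and 355 and 368 against 197 and 207 in TKO cells, and Pprc1, a coactivator of the PGC-1 family, at 117 and 108 CPM with DMSO against 61.3 and 54.8 with TSA in wild type cells, and 108 and 104 against 49.7 and 52.1 in TKO cells. Both were lower in every TSA library. Gabpa, the DNA-binding subunit of GABP, fell by 0.48 ± 0.12 and 0.58 ± 0.12 on the log2 scale, with exon bases shared with Atp5j. Nrf1 did not pass, at -0.25 ± 0.10 (adjusted p = 0.0513) and -0.08 ± 0.10, nor did Yy1, at -0.18 ± 0.12 (adjusted p = 0.239) and -0.07 ± 0.12. Tfam, which packages and transcribes mitochondrial DNA, was at 169.7 and 196 CPM with DMSO against 214 and 226 with TSA in wild type cells, and 179 and 182 against 231 and 213 in TKO cells, and rose in both genotypes (adjusted p = 0.0352 and 0.0192). Ppargc1a was at 0 to 0.34 CPM and was not tested. None of the 15 was called between genotypes under either treatment.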

How the data were processed

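RNA was measured as sequencing read counts per gene in 8 libraries of mouse embryonic stem cells, 2 in each of 4 groups by genotype and treatment. Per the labels' protocols, total RNA was depleted of ribosomal RNA and made into strand-directional paired-end libraries. The authors deposited raw counts per gene with the exon coordinates and the summed exon length in bases of each gene. The submitters' processing notes name TopHat2 2.0.13, featureCounts 1.4.5-p1, edgeR 3.22.3 and the build mm10, with no role or order; which strand was counted, with which annotation, and how reads with several matches were used is not given in the sources used here. Coordinates are those of the deposited table, and promoters are RefSeq sequences on GRCm38.p6.

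The test was edgeR's quasi-likelihood F test (edgeR 4.0.16, R 4.3.3) on the deposited counts. After filterByExpr 15822 of 23420 genes were left. All 8 libraries entered a single fit with TMM scaling and 1 mean for each group, which leaves 4 residual degrees of freedom and gave a common biological coefficient of variation of 10.3%. Tests were two-sided, Benjamini-Hochberg adjustment ran over all tested genes, and genes were called at an adjusted p below 0.05. Standard errors (SE) are approximate, since they were worked back from F. For 2 libraries against 2, the smallest p of an exact permutation test is 0.333. Replicates differed by more than sampling noise (chi-square per degree of freedom 5.28 to 12.2), so each library counts as 1 replicate; limits of 3 counts cover counting error only. Alternatives were other scalings, no filter, DESeq2 1.42.0, a replicate block, an offset for exon length (lowess span 0.3) and leaving out each library. The fit was tested on simulated counts in which only a small part of the genes was changed, in the TKO TSA group. With so few changes that simulation could not test the choice of scaling.

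The members and lists were chosen with earlier results of these data known. Named by rule were the 3 largest increases and decreases per contrast among called members of at least 1 CPM with no overlap between libraries, tissue-restricted members and their partners, the 3 genes of subunit c, core members, 10 other pathway genes, the 3 targeted genes, and up to 3 called genes from each list in a contrast. Other members and list genes named in the text were chosen after their values were seen, to show each functional group. Symbols of the 13 mitochondrially encoded subunits did not match, and those genes were not analysed here. The values of 1 member are counted in the totals but not reported here.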

Additional observations from a re-analysis of the deposited data

Results flagged for a closer look

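Among the members and the genes of the lists, 3 marker genes had a TSA effect that differed between the genotypes by the interaction test (edgeR, adjusted p below 0.05), and no respiratory chain gene did. The germ cell marker Stk31 was at 18 and 27.9 CPM with DMSO against 42.5 and 54.9 with TSA in wild type cells, and 64.6 and 57.8 against 50 and 37.4 in TKO cells, with an interaction (TKO minus wild type) of -1.58 on the log2 scale (adjusted p = 0.0323). The mesenchymal markers Col1a1 and Col3a1 had differences of 3.05 (adjusted p = 0.0287) and 4.41 (adjusted p = 0.0438). Col1a1 was at 12.1 and 12.7 CPM with DMSO against 13.2 and 18.5 with TSA in wild type cells, and 0.684 and 0.655 against 4.53 and 9.73 in TKO cells. Col3a1 had 73 and 40 counts with DMSO against 45 and 20 with TSA in wild type cells, and 1 and 1 against 11 and 14 in TKO cells. With 1 count in each TKO DMSO library, the size of its difference is poorly determined.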

How the results depend on the processing

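Of 96 results in which a member was called, 48 were called under all 15 alternatives, and none changed sign under any of them; those called throughout include Atp5b, Ndufs1, Ndufs3, Ndufs7, Ndufa4, Cox4i2, Cox6b2 and Cox7b2 with TSA in both genotypes, and Cox7b2 and Cox4i1 between genotypes. For TSA in wild type, total counts gave 22 higher, 15 lower and a median of 0.0439, above 0, upper quartile scaling a median of -0.0114, and the length offset 17 higher and a median of -0.0544. For TSA in TKO, total counts gave 25 lower and a median of -0.142, upper quartile scaling a median of -0.214, and the length offset 18 higher, 25 lower and a median of -0.061. For TKO against wild type with TSA, upper quartile scaling gave 4 lower and a median of -0.0416, total counts 3 lower, and the length offset a median of 0.0492. The median interaction was -0.143, -0.125 and -0.019 with upper quartile, total counts and the length offset. Total-count and upper quartile scaling shift all genes of a library alike, so they change the centring by construction. The length offset instead shifts genes by their exon length. With it the median of all tested genes was -0.0031 for TSA in wild type and 0.0049 in TKO. The cause of the trend on exon length was not tested.

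Leaving out 1 library at a time gave, for TSA in wild type, 6 to 10 higher, 16 to 27 lower and a median of -0.172 to -0.108, and for TSA in TKO 6 to 10 higher, 26 to 40 lower and a median of -0.313 to -0.25. For TKO against wild type it gave 2 to 4 higher with DMSO (median 0.0485 to 0.116) and 1 to 3 higher, 1 to 2 lower and a median of -0.0368 to 0.0334 with TSA, where that median was lowest without wild type TSA replicate 2. The median interaction ran from -0.118 to -0.0374. Some uncalled TSA effects in wild type changed sign. Atp5g3 ran from -0.0136 (without wild type DMSO replicate 2) to 0.0247 and was -0.0003 without wild type TSA replicate 2, Ndufa4l2 ran from -1.43 to 0.0616 (without wild type DMSO replicate 2), and Uqcrh from -0.0291 (without wild type TSA replicate 1) to 0.133.

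Replicate numbers are shared by the groups, but the labels do not say what they mark, and deviations of same-numbered libraries correlated at 0.0673 to 0.325. With the replicate number as a block, 12 members were higher and 30 lower with TSA in wild type, 10 and 40 in TKO, and 5 were lower in TKO with TSA; no member called without the block was lost. The TSA effect on Ndufa4l2 in wild type then passed (-0.81, adjusted p = 0.0452, against 0.272 without the block). At 3 counts per library, differences in Cox6a2, Cox8b and Cox8c were not detectable.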

Other observations

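The genes whose levels followed 2 tissue-restricted members most closely over the 8 libraries were searched among the 15822 tested genes by Pearson's r of log2(CPM + 1). As descriptions, with no test, Sord (0.987), Psd4 (0.985) and Apold1 (0.983) were the most alike to Cox7a1, and Large (0.998), Rab3b (0.997) and Mpzl1 (0.995) to Cox6b2. The 8 libraries come from 4 groups and are not independent of one another within a group.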
